A study of Homo sapiens with 7 samples.

Results

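Genes whose polyadenylation sites (PASs) lie far apart at the 3′ end were examined for a change in site choice after loss of nuclear poly(A) polymerases. A gene was taken when the table of batch 1 listed at least 2 PASs of type LastExon for an NM_ transcript, with 3000 nt or more between the lowest and the highest position. 3253 of the 15510 genes of that table met this rule, out of 8640 genes with 2 or more such sites, and they held 14922 PASs. The first site is the one nearest to the stop codon by strand, and the last site is the one farthest from it. Genes that share both sites were counted once (52 members share both, among them the 22 PCDHG genes), which left 3217 pairs of first and last sites.

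The cells were HEK293, an established human embryonic kidney line. They received a control siRNA (siCtrl) or siRNAs against Star-PAP (siStar-PAP), PAPα (siPAPα), PAPγ (siPAPγ) or PAPα plus PAPγ (the double knockdown, KD), and total RNA went into 3′READS, which sequences RNA 3′ ends at the junction with the poly(A) tail. The 3 single KDs of batch 1 and the double KD have 1 siCtrl library in common. A new pair of siCtrl and siStar-PAP libraries, made with 3′READS+, forms batch 2. Each group had 1 library per batch, so only siStar-PAP and siCtrl had a second library, and no genotype or drug other than the siRNAs differed between the groups.

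A poly(A) polymerase adds the tail after the transcript has been cleaved downstream of a signal, most often AAUAAA. PAPα and PAPγ are the canonical nuclear enzymes, and Star-PAP is a non-canonical enzyme encoded by TUT1. When a 3′UTR has several PASs, cleavage at the first gives a short 3′UTR and cleavage at the last a long one, and the stretch between them can carry binding sites for miRNAs and RNA-binding proteins.

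The letters upstream of the sites are shown for 8 members. 3 of them moved past 2-fold in the same direction in both batches of siStar-PAP (KIF1A, CD59 and EXOSC6). The other 5 were among the largest changes of more than 1 other KD. Each line gives 30 bases of the sense strand (hg19), from base 40 to base 11 counted back from the cleavage position, which is base 1. Capitals mark AATAAA or ATTAAA.
KIF1A first site, chr2:241656425-241656454, minus strand: cgttagttagtgacattgaaacagtcaact
KIF1A last site, chr2:241653194-241653223, minus strand: ctgtccaattaagaAATAAAtgtggctctt
CD59 first site, chr11:33731552-33731581, minus strand: aatggatcctgttgggaaagAATAAAatta
CD59 last site, chr11:33726839-33726868, minus strand: ctgtctcaaagccctccAATAAAttctcag
EXOSC6 first site, chr16:70284142-70284171, minus strand: cattcagggtcgattgagtaaaaaaaatgt
EXOSC6 last site, chr16:70280691-70280720, minus strand: aatatttgaagaaAATAAActatttcattg
UBE2L3 first site, chr22:21977739-21977768, plus strand: cagtttgtAATAAAatgccaaattctgtca
UBE2L3 last site, chr22:21984940-21984969, plus strand: ctctaagcaAATAAAcacacccaactccct
SMAD2 first site, chr18:45368059-45368088, minus strand: acagcacttgaggtctcatcaATTAAAgca
SMAD2 last site, chr18:45359486-45359515, minus strand: acagttttcctagcATTAAAagaaagccat
MRPL19 first site, chr2:75882838-75882867, plus strand: aAATAAAacatttaataagatctcagaaga
MRPL19 last site, chr2:75889293-75889322, plus strand: accttactttccaggAATAAAccctattat
FDX1 first site, chr11:110333250-110333279, plus strand: cttaaagtgATTAAAtgagaacatggatga
FDX1 last site, chr11:110336516-110336545, plus strand: ttgtatttggctttcacagataaaaccaac
SETD1B first site, chr12:122270495-122270524, plus strand: actatgtaccattgtattatagtaactttt
SETD1B last site, chr12:122286135-122286164, plus strand: cagtgAATAAAtgcatcagtggcctcaggc
KIF1A, EXOSC6 and SETD1B have AATAAA before the last site and neither word before the first, FDX1 has ATTAAA before the first alone, SMAD2 has ATTAAA before both, and CD59, UBE2L3 and MRPL19 have AATAAA before both, all within these windows.

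This order was common among the members. AATAAA, searched on the sense strand only in the 40 nt up to the site, was present at 1894 of 3217 last sites (58.9%, exact 95% interval 57.2 to 60.6), at 1150 of 3216 first sites (35.8%, 34.1 to 37.4) and at 3076 of 8489 sites in between (36.2%, 35.2 to 37.3). All 36233 LastExon sites held it in 46.3%. Genes with a shorter span had the same order, with 39.5% at the first (38.2 to 40.8) and 55.9% at the last site (54.5 to 57.2). With ATTAAA searched in the same way and a site with either word counted once, the shares of the members were 49.4% at the first and 74.9% at the last site. A match is a description of the letters and not of use.

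The span had a median of 6145 nt and quartiles of 4123 and 10709 nt, and went from 3002 to 317336 nt. Genes with 2 or more sites below the threshold had a median span of 919 nt. 540 members had 2 LastExon sites, 653 had 3 and 2060 had 4 or more, with a median of 4 and a maximum of 16. Just outside the threshold were IREB2 and GPLD1 at 2999 nt and ANO6 at 2998 nt, and just inside were PSMD12 at 3002 nt, PRICKLE1 at 3004 nt and PRRG4 at 3007 nt.

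A LastExon label does not mean that both sites lie in 1 exon of the present annotation, since in this study it also covers the extended region downstream of the gene. Of the 3233 members found in GENCODE v44lift37, 1058 (32.7%) had both sites in 1 exon. In 1857 (57.4%) the last site lay past the annotated end of the gene, by a median of 6901 nt, and in 318 (9.84%) the sites were placed otherwise, with the last site in an intron in 240 and both sites in different exons in 74. For genes with a shorter span the shares were 77.9%, 19.1% and 3.05%, with a median of 630 nt past the end. The last site fell inside another protein-coding gene of the same strand in 205 members (6.34%), against 6.11% of the other genes. Reads there could come from the downstream gene, and the counts hold nothing that separates the 2 sources.

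**Figure D1:**
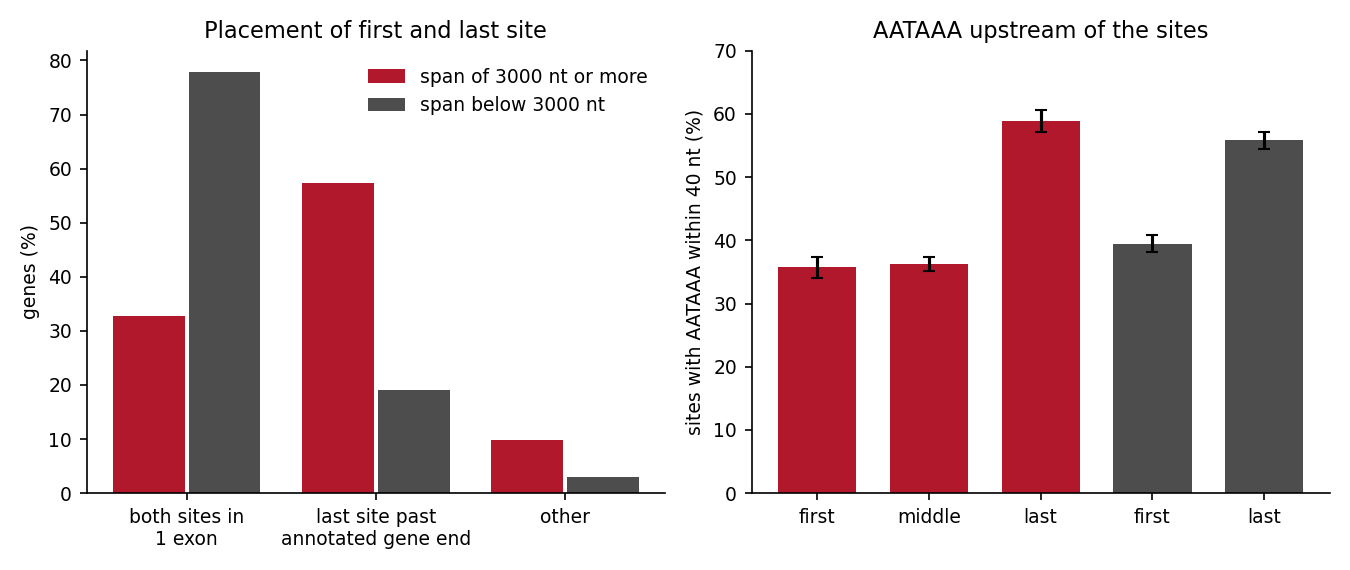
Left, percent of genes by the GENCODE placement of the first and last site, for spans of 3000 nt or more (red) and below (grey). Right, percent of sites with AATAAA in the 40 nt upstream (first, middle and last sites of members in red, first and last sites of other genes in grey), with exact 95% intervals. The last sites of the members are at 58.9% and their first sites at 35.8%.

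The 5 longest spans had sites placed otherwise, and their ends were hardly read. NEK11, a NIMA-family kinase, spanned 317336 nt and had at most 7 reads at the first and 6 at the last site in any library of batch 1. GLIS3, a zinc finger transcription factor with a span of 278900 nt, had 45, 52, 19 and 27 reads at the last site in siCtrl, siStar-PAP, siPAPα and siPAPγ, and 0, 0, 4 and 0 at the first. FAM13A (264675 nt), BCL2 (195401 nt), which encodes an inhibitor of apoptosis, and SORBS2 (189761 nt) had no more than 20 reads at either end in these libraries. None of the 5 passed the read filter, so no change was read from them.

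Of first, last and middle sites, the middle sites took the largest share of reads. In siCtrl of batch 1 the first sites took 36.9% of the 416746 reads at LastExon sites of members, the last sites 20.2% and the sites in between 42.9%. Members held 5.42% of all reads at such sites in siCtrl and between 4.23% and 4.93% in the 3 KDs of the batch. Among the 2366 members with a mean of more than 25 LastExon reads per library, the most-read site was the first in 694 (29.3%), the last in 380 (16.1%) and one in between in 1292 (54.6%).

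The tables held between 2362875 reads (siStar-PAP of batch 2) and 16245257 reads (siPAPα) per library. TUT1 fell from 83 reads in siCtrl to 2 in siStar-PAP of batch 1, and was at 6 and 4 reads in siCtrl and siStar-PAP of batch 2 (1.19 and 0.941 RPM, reads scaled by the library's total), so that these reads do not show its loss in batch 2. PAPOLA, the gene of PAPα, went from 71 reads in siCtrl to 12 in siPAPα, and from 78 to 8 in the table of the double KD. It was also lower in siStar-PAP of batch 1 (44 reads, 2.66 RPM) than in siCtrl (6.21 RPM). PAPOLG, the gene of PAPγ, had 5 reads in siCtrl, 15 in the library labelled siPAPγ (0.438 and 1.01 RPM) and 6 in the double KD, so that these reads do not show its loss, and siPAPγ in what follows stands for the library labelled so. The authors checked the KDs of the PAPs by immunoblot and report them as effective at the protein level, which read counts do not measure. Of the HEK293 markers, KRT18 (783 to 2648 RPM), VIM, KRT8, LIN28B and NEFM were read in all 4 libraries of batch 1 and PAX2 in 3 of 4, whereas PTPRC, CD3E, ALB and HBB were at 0 in all 4 and COL1A1 had at most 5 reads.

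The change in site choice was measured as RED, the log2 ratio of reads at the last to reads at the first site in a KD minus the same log2 ratio in siCtrl, with 0.5 reads added. A positive RED is a shift to the last site (lengthening) and a negative one a shift to the first (shortening), and RED does not depend on library depth. A pair was measured when each site had a mean of more than 25 reads per library of its table. The mean includes the KD libraries, so a pair could pass on reads of a KD while having few in siCtrl. For such a pair the filter itself favours a change toward the site with few reads in siCtrl. 307 member pairs passed in batch 1 and 175 of the 1037 member pairs found in the table of the double KD. In batch 2, 39 of the 503 found passed. Since each KD has 1 library per table, there is no test over samples for a single KD: a pair was counted as changed when RED was above 1 or below -1, which is 2-fold, and 95% intervals cover the counting of reads only. PCR copies make reads less independent than these intervals assume.

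The share of members that lengthened was highest in the double KD, which was measured over a different set of members than batch 1. Both sites lay in 1 exon in 133 of its 175 members, against 187 of the 307 of batch 1. No common set was compared. 86 of the 175 measured members (49.1%) lengthened past 2-fold, against 31.9% of all 1424 genes measured there, and 14 (8.0%) shortened, against 16.6% of all. The median RED of the members was 0.98 with quartiles of -0.11 and 2.25, and that of genes with a shorter span was 0.27. The labels do not say whether the double KD was made in the batch of its siCtrl library, and a difference between batches and the effect of this KD cannot be told apart here. In siPAPα, 123 of 307 members (40.1%) lengthened, against a background of 29.9% of 1751 genes, and 41 (13.4%) shortened, against 17.8%. There the median was 0.57 with quartiles of -0.51 and 1.65, and 0.23 for the other genes. siPAPα is also the deepest library. With all libraries of a table thinned to the shallowest, the medians of the members were 0.49 in siPAPα and 1.02 in the double KD. A filter on siCtrl alone (more than 25 reads at each site), chosen after seeing the data, gave lower medians. In siPAPα the median was 0.41, with 86 of 247 members lengthened (34.8%) and 39 shortened (15.8%). In the double KD it was 0.84, with 73 of 161 lengthened (45.3%) and 14 shortened (8.70%). Shares over all genes were not taken with that filter. The size in the double KD depends on the sites set against each other: its median was 0.47 over 585 members with the 2 most-read sites and 0.64 over 581 with the farther against the nearer sites of each gene. With the first and last site of its own table it was 0.77 over 209 members.

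The other KDs had medians near 0. In the library labelled siPAPγ, 70 of 307 members (22.8%) lengthened and 64 (20.8%) shortened, beside 19.5% and 19.2% of all genes, with a median RED of 0.12. In siStar-PAP of batch 1, 79 (25.7%) lengthened and 63 (20.5%) shortened, beside 20.3% and 18.3% of all genes, and the median was -0.01. In siStar-PAP of batch 2, 3 of 39 (7.69%) lengthened and 3 shortened, beside 7.99% and 11.9% of 438 genes, with a median of 0.08.

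**Figure D2:**
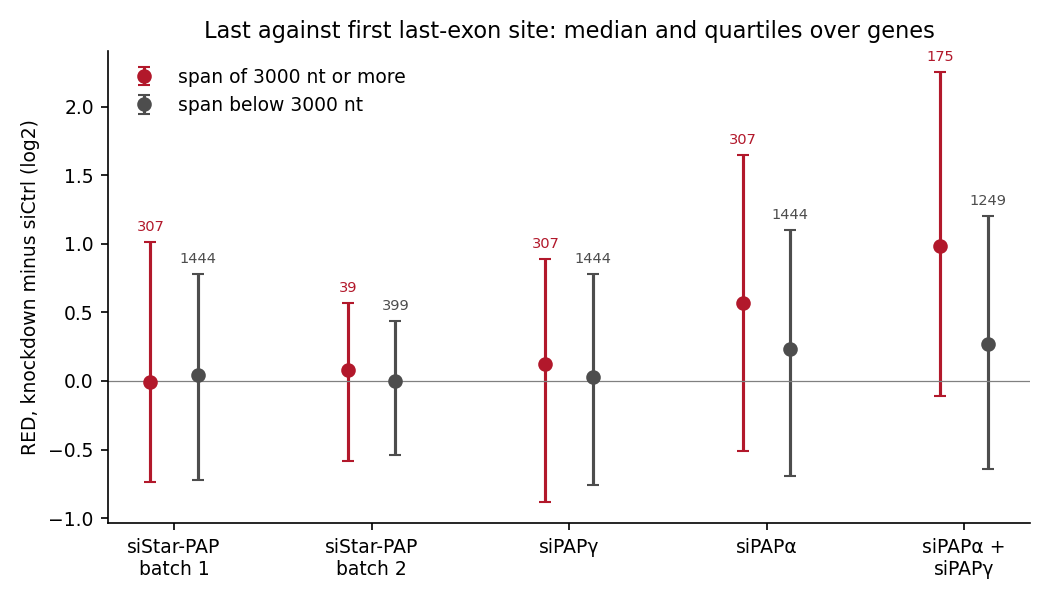
RED (log2) of the last against the first last-exon site in each KD relative to its siCtrl. Points are medians over genes, bars the quartiles and numbers the genes measured, for spans of 3000 nt or more (red) and below 3000 nt (grey). The members' medians are at 0.98 in the double KD and 0.57 in siPAPα, and between -0.01 and 0.12 in the other 3 comparisons.

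siPAPα, siPAPγ, siStar-PAP of batch 1 and the double KD were all set against 1 siCtrl library, so that an unusual ratio in that library would move all 4. Set against the library labelled siPAPγ in place of siCtrl, a choice made after seeing the data, siPAPα had a median RED of 0.54 over the members and 0.17 over the other genes, with 93 members lengthened and 24 shortened. These were 30.3% and 7.82% of the members, beside 19.8% and 7.48% of the other genes, so the shares that shortened were nearly the same. Set against siStar-PAP of batch 1, siPAPα had 0.48 over the members and 0.19 over the other genes, with 100 members lengthened (32.6%) and 40 shortened (13.0%). Of the other genes, 23.5% lengthened and 14.0% shortened there. The siCtrl libraries of the 2 batches, which differ in protocol, were far apart from each other. Of 124 members measured in both, 91 had a last to first ratio that differed by more than 2-fold (73.4%), against 72.5% of all 1058 genes, 58 with more and 33 with less of the last site in batch 2. No library of the double KD, siPAPα or siPAPγ was made with the protocol of batch 2.

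The medians were also taken over classes of span. In the double KD they went from 0.07 below 300 nt (379 genes) to 0.20 from 300 to under 1000 nt and 0.54 from 1000 to under 3000 nt. Among the members the median was 0.84 from 3000 to under 5000 nt (112), 1.23 from 5000 to under 10000 nt (55) and 1.54 at 10000 nt or more, where there were 8 pairs. The medians of siPAPα rose from 0.11 below 300 nt to 0.69 in the 170 members from 3000 to under 5000 nt, but were lower beyond, at 0.50 (105 members) and 0.30 (32 members, quartiles -0.83 and 1.37). siStar-PAP of batch 1 stayed between 0.00 and 0.10 up to 10000 nt and was at -0.60 in the 32 longest, of which 7 lengthened and 7 shortened. These classes were compared with no test, since genes are not replicates.

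**Figure D3:**
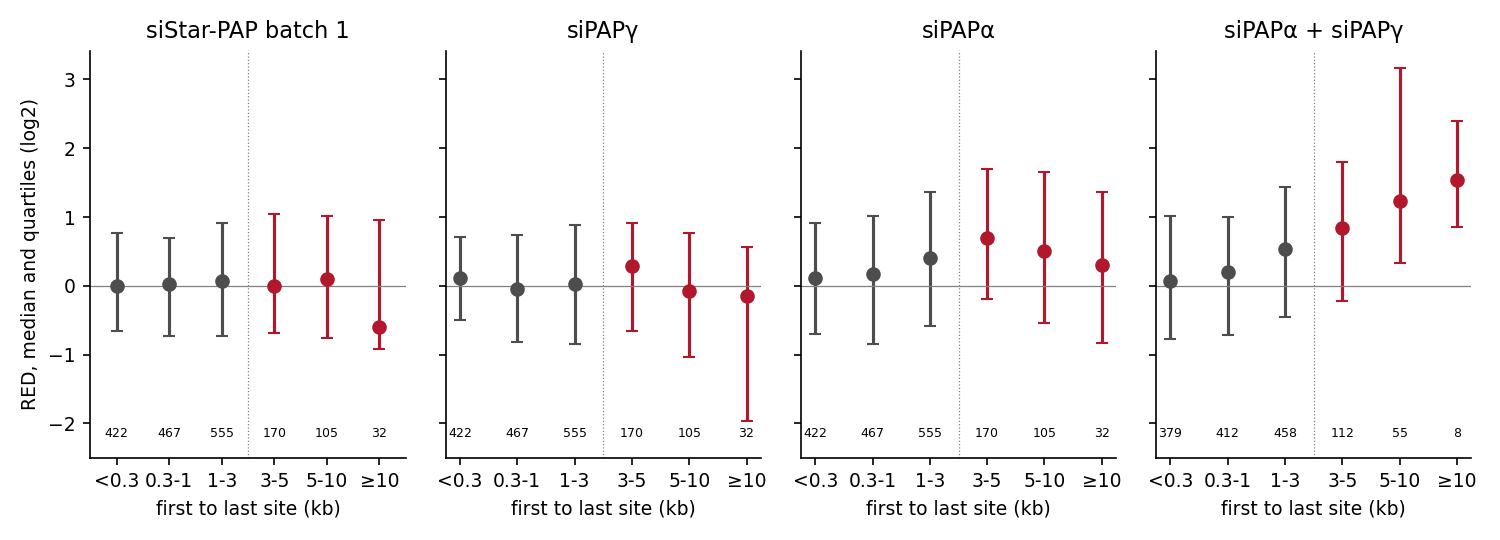
RED (log2, y axis) by distance from first to last site (kb, x axis) for 4 KDs. Points are medians and bars quartiles over genes, with the number of genes at the bottom. Red points to the right of the dotted line are members. In the double KD the medians are at 0.84, 1.23 and 1.54 in the 3 member classes, and in siPAPα at 0.69, 0.50 and 0.30.

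Members with both sites in 1 exon showed the same order of KDs as all members. Their median RED was 0.98 in the double KD (133 members, 65 lengthened, 8 shortened) and 0.70 in siPAPα (187 members, 80 lengthened, 18 shortened), and 0.12 in siPAPγ and -0.01 in siStar-PAP of batch 1. Other genes with both sites in 1 exon had 0.29 in the double KD (1161 genes, 345 lengthened, 198 shortened). In siPAPα those genes had 0.25 (1309 genes, 363 lengthened, 236 shortened). Where the last site lay past the annotated gene end, the medians were 0.79 in the double KD (32 members) and 0.37 in siPAPα (98 members, 36 lengthened, 19 shortened). For other genes placed so they were 0.08 (68 genes) and 0.04 (113 genes, 35 lengthened, 30 shortened). The 18 members of batch 1 whose last site lay in another gene had a median of 0.38 in siPAPα. The members were also split by the presence of AATAAA. In the double KD the median was 1.16 with AATAAA at the last site alone (65 members), 0.46 with it at the first alone (26), 0.84 with it at both (53) and 1.28 with it at neither (31). In the same order the medians of siPAPα were 0.89 (107), 0.58 (48), 0.41 (93) and 0.45 (59). The medians of siStar-PAP in batch 1 were -0.23, 0.11, 0.17 and -0.01 over the same members. In batch 2 they were -0.43 (10), -0.03 (8) and 0.28 (16), with 5 members in the class with neither and no median taken. The order of the 4 classes differed between the KDs.

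Levels at the sites separate the 2 parts of RED. In RPM, scaled to the library's PASS reads (those with an untemplated tail), first sites of members in the double KD had a median log2 ratio to siCtrl of -0.91, and last sites 0.20. The corresponding values of the other genes were -0.49 and -0.20. In siPAPα the members were at -0.49 at first and 0.15 at last sites, and the other genes at -0.24 and -0.06. The scale moved these values: TMM factors added 0.47 in the double KD and 0.40 in siPAPα, so that the first sites of siPAPα came to -0.09. Relative to the other genes, which does not depend on the scale, first sites of members differed by a log2 value of -0.42 in the double KD and -0.26 in siPAPα, and last sites by 0.40 and 0.20. In read shares over all measured and unmeasured member pairs of batch 1, the last sites took 22.5% in siPAPα, 20.2% in siCtrl, 20% in siStar-PAP and 18.5% in siPAPγ. For the pairs in the table of the double KD the share went from 24.5% in siCtrl to 28.1%, while that of the first sites went from 33.6% to 28.5%.

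UBE2L3, an E2 ubiquitin-conjugating enzyme, was among the largest rises in 2 comparisons. Its sites lie 7201 nt apart, the last one 6656 nt past the annotated end of the gene. siCtrl had 269 reads at the first and 69 at the last site, against 236 and 645 in siPAPα, 57 and 398 in siPAPγ, 63 and 474 in the double KD and 142 and 299 in siStar-PAP. All 4 KDs of this siCtrl library thus had more reads at the last than at the first site, and siCtrl had fewer. RED was 3.40 in siPAPα (counting interval 2.96 to 3.87), 4.75 in siPAPγ (4.19 to 5.35), 4.86 in the double KD (4.31 to 5.44) and 3.03 in siStar-PAP (2.54 to 3.54). The farther against the nearer sites gave 3.82 in siPAPγ and 3.65 in the double KD, and the 2 most-read sites 3.74 and 3.56. With the first and last site of its own table the double KD was at 2.88. In batch 2, siCtrl had 8 and 15 reads and siStar-PAP 4 and 33, so that the last site was ahead in that control as well.

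SMAD2, which carries TGF-β signals to the nucleus, has its sites 8573 nt apart in 1 exon. siCtrl had 273 reads at the first and 6 at the last site, so the pair passed the read filter through the KD libraries. The reads at these sites were 57 and 54 in siPAPα, 131 and 20 in siPAPγ, 38 and 58 in the double KD, and 203 and 49 in siStar-PAP. RED was 6.0 in the double KD (4.76 to 7.69) and 5.32 in siPAPα (4.11 to 6.99), with 2.71 in siPAPγ and 3.36 in siStar-PAP. The farther against the nearer sites gave 3.29 in the double KD and 3.28 in siPAPα. The 2 most-read sites gave 3.57 and 3.31, so the size depends on the sites compared. The control of batch 2 had 24 and 45 reads and siStar-PAP there 10 and 55, again with the last site ahead in both.

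MRPL19, a protein of the mitochondrial ribosome, has its sites 6455 nt apart in 1 exon. It had 1053 and 11 reads in siCtrl, 741 and 205 in siPAPα, 517 and 83 in siPAPγ, 608 and 83 in the double KD and 1023 and 26 in siStar-PAP. The first site kept most reads in each of these libraries, and RED was 4.67 in siPAPα (3.84 to 5.76), 3.89 in siPAPγ (3.01 to 5.01), 3.65 in the double KD and 1.25 in siStar-PAP. In batch 2 the last site had more reads, with 45 and 133 in siCtrl and 65 and 295 in siStar-PAP. At 11 reads in siCtrl of batch 1, the last site of MRPL19 passed the read filter through the KD libraries.

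FDX1, a mitochondrial ferredoxin, had 166 and 0 reads in siCtrl, 297 and 61 in siPAPα, 222 and 22 in siPAPγ and 221 and 26 in siStar-PAP. With the count of 0 taken as 3 reads, RED was 3.51 in siPAPα, 2.46 in siPAPγ and 2.70 in siStar-PAP, and the lower counting limits were 3.14, 2.0 and 2.27. The 2 most-read sites of FDX1 gave 0.51 in siPAPα and 0.27 in siPAPγ, within 2-fold of siCtrl. ZNF704, a zinc finger protein, went from 102 and 21 reads in siCtrl to 21 and 127 in siPAPα (RED 4.82, 3.86 to 5.91), but had 1.64 for the farther against the nearer sites and 0.92 with its 2 most-read sites. XPO4, a nuclear transport receptor, and ATP2B4, a calcium pump of the plasma membrane, had no read at the first site in the double KD, with 118 and 205 at the last. Against 68 and 83 reads of XPO4 and 64 and 145 of ATP2B4 in siCtrl, RED with the 0 taken as 3 reads was 5.01 and 4.91, with lower counting limits of 4.6 and 4.54. The farther against the nearer sites of XPO4 gave 3.39. RAP1GAP2, a GTPase-activating protein of Rap1, went from 29 and 8 to 7 and 30 reads in siPAPγ (RED 3.82, 2.15 to 5.83). The last sites of FDX1, ZNF704 and RAP1GAP2 had fewer than 25 reads in siCtrl and passed the filter through the KD libraries.

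Among the members that shortened, RNF126, a ubiquitin ligase with its last site 3156 nt past the annotated end, had 420 reads at the first and 2872 at the last site in siCtrl, 555 and 719 in siPAPα, 340 and 327 in siPAPγ, 367 and 204 in the double KD and 179 and 821 in siStar-PAP. RED was -3.62 in the double KD (-3.92 to -3.33), -2.83 in siPAPγ and -2.40 in siPAPα, and -0.58 in siStar-PAP. The siCtrl library of batch 2 had 175 and 53 reads, the reverse of the order in batch 1. PAFAH1B1, a regulator of dynein, has its sites 3705 nt apart in 1 exon. It went from 398 and 263 in siCtrl to 573 and 66 in the double KD (RED -2.51, -2.97 to -2.08), and had RED of -1.69 in siPAPα, -1.76 in siPAPγ and -1.44 in siStar-PAP.

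The other members named for a fall were placed in different ways. POLRMT, the mitochondrial RNA polymerase, with its last site 7281 nt past the end, went from 294 and 1640 reads in siCtrl to 403 and 220 in siPAPα (RED -3.35, -3.66 to -3.05). MPHOSPH6, a cofactor of the RNA exosome, with its last site 16566 nt past the end, went from 146 and 69 to 449 and 12 (RED -4.09, -5.20 to -3.19), but its 2 most-read sites gave 0.47, the opposite sign. SETD1B, a histone H3K4 methyltransferase with its last site 15612 nt past the end, went from 35 and 56 to 214 and 31 in siPAPα (RED -3.44) and to 77 and 7 in siPAPγ (RED -4.04, -5.63 to -2.80). ZDHHC24, of the family of palmitoyltransferases, has both sites in 1 exon and went from 262 and 43 to 824 and 12 in siPAPα (RED -3.45, -4.57 to -2.52). In siPAPγ, EARS2, the mitochondrial glutamyl-tRNA synthetase whose last site lies in the neighbouring gene GGA2, had RED of -3.86 (-0.61 with its 2 most-read sites), NPTX1, a secreted neuronal pentraxin, -3.62, and PPIG, a peptidyl-prolyl isomerase, -3.54. In the double KD, PHF20, a chromatin reader whose last site lies in CNBD2, had RED of -2.30 (59 and 217 reads in siCtrl, 266 and 198 in the KD), and RHPN2 had -2.22.

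**Figure D4:**
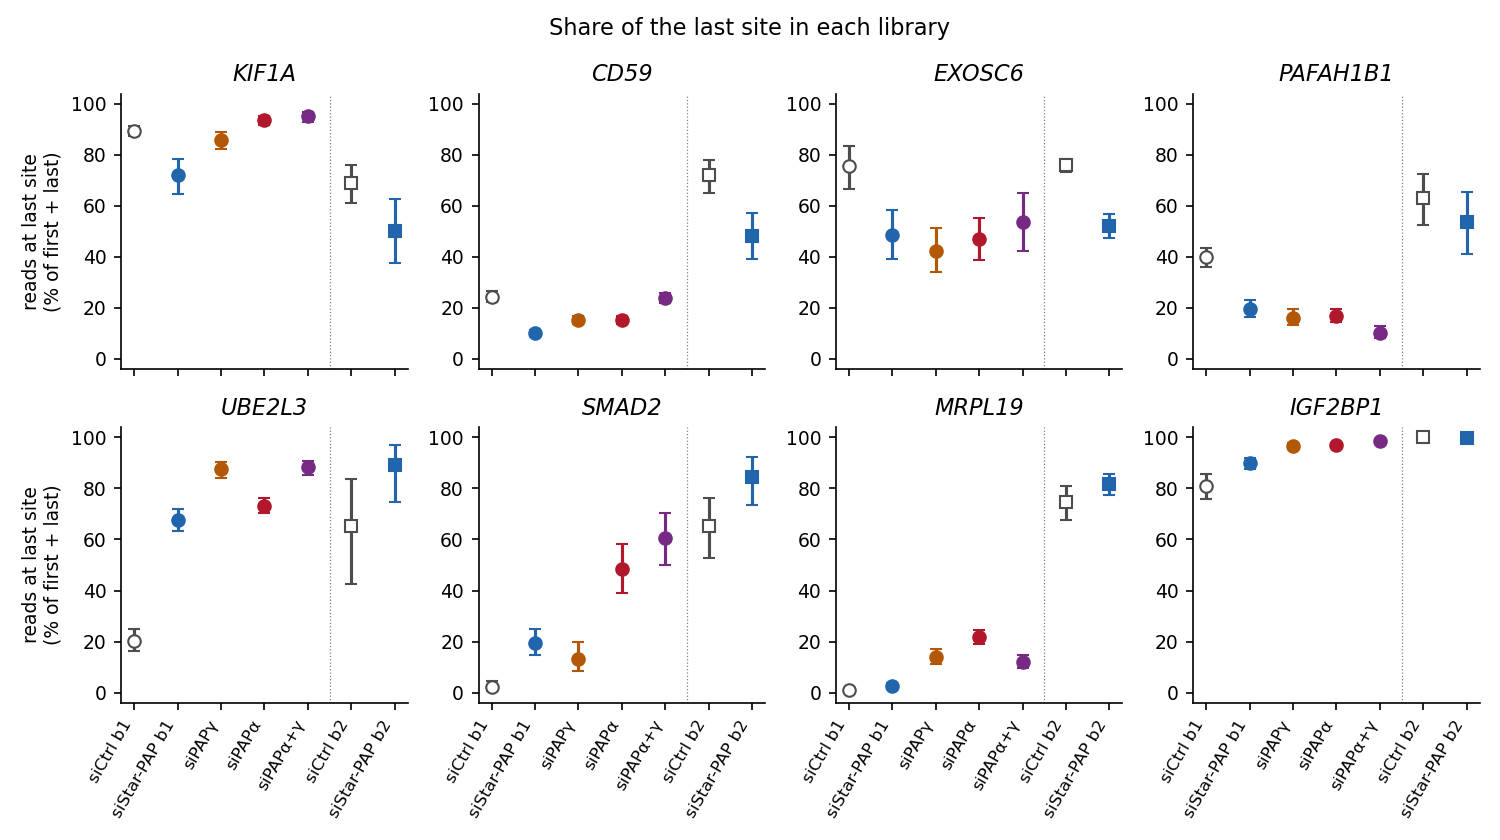
Reads at the last site as percent of reads at the first and last site (y axis) in each library (x axis) for 8 members, with exact 95% intervals. Open symbols are siCtrl, circles batch 1 and the double KD, squares batch 2. UBE2L3, SMAD2 and MRPL19 lie lowest in siCtrl of batch 1, and KIF1A, CD59 and EXOSC6 are lower in siStar-PAP than in siCtrl of the same batch in both batches.

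For siStar-PAP the 2 batches give the only repeat. 28 members were measured in both, and RED had the same sign in 21 of them, beside 234 of the 395 genes of any span. Across these 28 genes, which share libraries and are not independent, Pearson's r was 0.448 and Spearman's coefficient 0.413. Past 2-fold in both batches, 0 members lengthened and 3 shortened, beside 9 (2.28%) and 18 (4.56%) of the 395 genes. KIF1A, a kinesin motor, has its sites 3231 nt apart in 1 exon and had 122 and 1021 reads in siCtrl and 50 and 128 in siStar-PAP of batch 1, then 52 and 115 and 33 and 33 in batch 2 (RED -1.71 and -1.14). CD59, an inhibitor of the complement membrane attack complex with its sites 4713 nt apart in 1 exon (the last also inside another protein-coding gene model of the strand), had 1225 and 394 in siCtrl and 2332 and 265 in siStar-PAP, then 56 and 144 and 68 and 63 (RED -1.50 and -1.46). EXOSC6, a subunit of the RNA exosome, has its sites 3451 nt apart in 1 exon and had 26 and 81 in siCtrl and 59 and 56 in siStar-PAP, then 266 and 844 and 214 and 231 (RED -1.70 and -1.55). The share of the last site was lower in siStar-PAP than in its own siCtrl in each of these 6 comparisons, although the control of CD59 differed between the batches (24.3% and 72.0%). In batch 2 the counting intervals of RED were -2.04 to -0.24 for KIF1A, -2.18 to -0.77 for CD59 and -1.90 to -1.21 for EXOSC6. Those of KIF1A and CD59 reach inside 2-fold, as does that of EXOSC6 in batch 1 (-2.61 to -0.84). EXOSC6 was also below -1 in siPAPα (-1.79), siPAPγ (-2.06) and the double KD (-1.41), whereas KIF1A had 0.83 in siPAPα, 1.18 in the double KD and -0.47 in siPAPγ. CD59 had -0.03 in the double KD, -0.84 in siPAPα and -0.83 in siPAPγ.

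**Figure D5:**
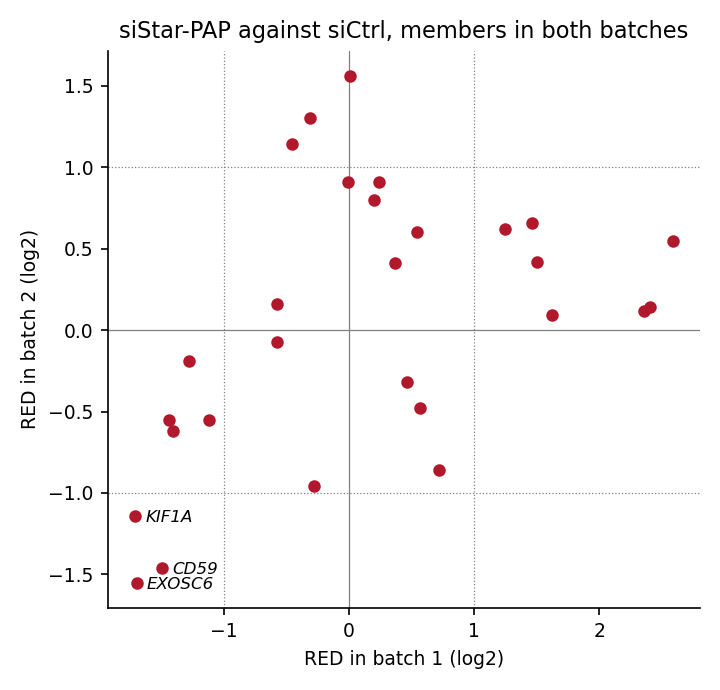
RED (log2) of siStar-PAP against siCtrl in batch 1 (x axis) and batch 2 (y axis) for the 28 members measured in both. Dotted lines mark 2-fold. KIF1A, CD59 and EXOSC6 are the 3 points past -1 in both batches, and no point is past 1 in both.

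Fitted over both batches, no single member passed. In edgeR's quasi-likelihood test of the site by KD interaction, with batch as a block and Benjamini-Hochberg adjustment, 0 of 210 members and 0 of all 1511 genes (0%) had an adjusted p below 0.05. At an unadjusted p below 0.05 there were 13 members lengthened and 6 shortened, beside 116 of the 1511 genes in either direction. DESeq2 had 0 adjusted calls, with 11 and 4 members unadjusted beside 101 of the 1511 genes in either direction. The fitted log2 changes were -1.62 for EXOSC6 (edgeR adjusted p = 0.582), -1.49 for CD59 (0.582), -1.44 for KIF1A (0.655), 2.73 for UBE2L3 (0.322) and 2.49 for SMAD2 (0.393). The design leaves 1 residual degree of freedom.

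A fit of all 7 libraries, with batch as a block, lends a spread to the KDs that have 1 library. That spread is how far the change of siStar-PAP against siCtrl differed between the batches. The block takes out the difference in site choice between the batches, so that difference is not in the adjusted p given below. Each single library is thus assumed to vary only as the siStar-PAP change did. The labels do not give the batch of the double KD, so this fit cannot separate a difference between batches from its effect. The counts and adjusted p of the double KD in this fit therefore cannot be ascribed to the KD alone. 22 of 262 members lengthened and 1 shortened in the double KD, beside 4.57% and 0.879% of 1707 genes. In siPAPα 7 lengthened and 1 shortened, beside 2.64% and 0.586%. In siPAPγ 3 lengthened (UBE2L3, MRPL19 and GFPT1, the last named after its value was seen) and PUSL1, likewise named after its value was seen, shortened, beside 0.293% and 0.176%. In siStar-PAP there were 0 members, beside 0.0586% of genes in each direction. At an unadjusted p below 0.05 there were 12 and 7 members, beside 147 of the 1707 genes in either direction. For siPAPα the share of the 262 members that lengthened in this fit was close to that of all genes. The share past 2-fold in RED, given above, was higher in members than in all genes. edgeR's adjusted p was 0.000693 for UBE2L3, 0.00153 for SMAD2, 0.0128 for XPO4 and 0.00511 for RNF126 in the double KD. In siPAPα it was 0.000905 for MRPL19, 0.00687 for SMAD2, 0.0249 for UBE2L3 and 0.0323 for ZDHHC24, the one member that shortened.

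The most-read members moved in different ways. C6orf125, with both sites in 1 exon, had 2490 and 7117 reads in siCtrl, 5123 and 21769 in siPAPα (RED 0.57, 0.49 to 0.65), 4199 and 4130 in siPAPγ (-1.54) and 3695 and 10023 in siStar-PAP (-0.08). EGLN2, an oxygen-sensing prolyl hydroxylase with its last site 4082 nt past the annotated end and inside another annotated gene, had 6428 and 200 in siCtrl, 5985 and 531 in siStar-PAP (1.51) and 5995 and 445 in siPAPα (1.25). TMEM185B, a transmembrane protein, had 333 and 4023 in siCtrl and 787 and 3854 in siPAPα (-1.30), and a RED of -0.10 in the double KD (-0.34 to 0.13). POLR2E, a subunit shared by the RNA polymerases, had 2648 and 188 in siCtrl, 3360 and 933 in siPAPα (1.96), 659 and 353 in siPAPγ (2.91) and 4509 and 319 in siStar-PAP (-0.01). RNF126 was the other of the 5.

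By function, few members had reads enough at both ends. Of the RNA-binding and miRNA pathway list 19 genes were members and 4 were measured in batch 1. In siPAPα, IGF2BP1, which binds mRNA coding and 3′UTR sequences, lengthened (RED 2.93), as did HNRNPA3 (1.11), HNRNPA2B1 shortened (-1.17) and SYNCRIP had -0.47. IGF2BP1 had 50 and 214 reads in siCtrl, 56 and 1830 in siPAPα, 32 and 933 in siPAPγ and 18 and 1322 in the double KD (RED 4.07, 3.26 to 4.99). In batch 2 nearly all of its reads were at the last site, also in siCtrl (0 and 216). HNRNPA2B1 went the other way in siStar-PAP (662 and 38 reads in siCtrl, 425 and 109 in siStar-PAP, RED 2.15).

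The 3 measured genes of the 19 membrane traffic members all lengthened in siPAPα: STX7, a SNARE of late endosomes, with RED of 4.62 (98 and 63 reads in siCtrl, 3 and 55 in siPAPα, counting interval 3.10 to 7.20), RAB21 with 2.20 and RAB22A with 1.54, the last 2 being endosomal GTPases. In siStar-PAP they had -2.17, 1.68 and 0.20. Of the 24 chromatin and transcription members 4 were measured, with SMAD2 (5.32) and the coactivator NCOA3 (2.83) lengthened in siPAPα, PHF20 (-2.19) shortened and the methyltransferase NSD1 at -0.75. Of 19 signalling members 3 were measured in siPAPα, with the PI3K subunit PIK3R3 at 1.46, the receptor IGF1R at -0.31 and the kinase MAPK14 at -1.25. Of 16 ubiquitin members 1 was measured, NEDD4L, a ligase, at 1.32 (0.02 to 2.75). Of 10 cell cycle members 2 were, the cohesin subunit SMC1A at -2.42 and cyclin CCND2 at -0.20 (-0.71 to 0.31), the latter at -2.02 in the double KD. Of 6 members among cleavage and polyadenylation factors 1 was, CPSF2, at 0.47 (-0.07 to 0.99). With between 1 and 4 measured genes a list, against the 29.9% and 17.8% of all genes past 2-fold in siPAPα, no list is set apart by these counts.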

How the data were processed

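The deposited values are read counts that were not normalized: the authors mapped 3′READS reads to hg19 with Bowtie2 (version not given in the sources used here), kept reads with an untemplated tail, clustered sites and listed the reads at each PAS. 7 libraries in 3 tables were used, and 0 value columns were left without a sample. Members, lists and named genes were chosen with earlier results of these data known. Sites of the tables were paired within 24 nt. RED, its filter (mean above 25 reads per site), 0.5 added reads and the 2-fold call are described above. The genes named were those past 2-fold in both batches (siStar-PAP), the 4 largest rises and falls with a counting interval that leaves out no change (other KDs), the 5 most read, the 5 longest, the neighbours of the threshold and up to 4 per list.

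Replicate numbers mark the batches, each made with its own siCtrl, so batch was a block (members past 2-fold: 46.3% between siStar-PAP and siCtrl of batch 1, 15.4% in batch 2, 73.4% between the siCtrl libraries) in edgeR 4.0.16 (R 4.3.3), tested on genes with more than 50 reads at each site. On simulated counts for siStar-PAP over both batches (1511 genes, 200 changed 8-fold), edgeR recovered 191 with 6 false calls and DESeq2 1.42.0 177 with 1. The simulation used the same fixed spread for all genes and no difference in site choice between the batches. These numbers therefore do not give the recovery to be had in the real counts. Nothing says that the batches were separate cultures. Python 3.11.15 with numpy, pandas, scipy 1.17.1 and matplotlib 3.10.9 was used, with GENCODE v44lift37 and the hg19 genome. Alternatives covered the site pair, filter, added reads, fold, span, scale and window.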

Additional observations from a re-analysis of the deposited data

Results flagged for a closer look

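2 members measured in all 3 tables had RED of one sign in both siStar-PAP libraries and of the other sign in siPAPα, siPAPγ and the double KD, out of 26 such members. Of all 381 genes measured in these tables, 27 (7.09%) had such a pattern of signs, so the members were near the share of all genes. The difference between these groups of KDs was not tested, and the 3 KDs other than siStar-PAP share 1 siCtrl library with each other and with siStar-PAP of batch 1. VMA21, an assembly factor of the V-ATPase, had RED of -1.28 (counting interval -1.93 to -0.66) in siStar-PAP of batch 1 and -0.19 (-0.98 to 0.62) in batch 2, and 0.90, 0.63 and 2.39 in siPAPα, siPAPγ and the double KD. Its reads at the first and last site were 45 and 190 in siCtrl, 88 and 152 in siStar-PAP of batch 1 and 8 and 186 in the double KD. SGMS2, a sphingomyelin synthase, had 0.01 (-0.34 to 0.36) and 1.56 (0.68 to 2.48) in siStar-PAP of batches 1 and 2, and -1.03, -0.96 and -0.02 in siPAPα, siPAPγ and the double KD, so that 2 of its 5 values are near 0.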

How the results depend on the processing

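The medians of RED kept their sign in siPAPα and the double KD under each alternative run. In siPAPα they went from 0.36 (no filter on reads) to 0.70, and in the double KD the median was 0.47 with the 2 most-read sites and 0.64 for the farther against the nearer sites of each gene. The median of siPAPγ was -0.15 with more than 25 reads at each site in siCtrl alone (chosen after seeing the data) and -0.08 with a span of 5000 nt or more. For siStar-PAP, leaving out 1 batch gave medians between -0.01 and 0.08. In pairs of members lengthened and shortened, a mean above 10 reads gave 173 and 163 in siStar-PAP of batch 1, 19 and 18 in batch 2, 252 and 116 in siPAPα, 162 and 166 in siPAPγ, and 180 and 39 in the double KD. In the same order, a mean above 100 reads gave 15 and 8, 0 and 1, 27 and 8, 15 and 14, and 21 and 4, and no filter gave 1178 and 1089, 154 and 145, 1323 and 988, 1108 and 1098, and 513 and 249. The 2 most-read sites gave 175 and 152, 23 and 12, 257 and 123, 174 and 144, and 217 and 83. The farther against the nearer sites gave 157 and 121, 25 and 14, 222 and 92, 138 and 109, and 232 and 68. A span of 5000 nt or more gave 34 and 32, 0 and 0, 53 and 23, 29 and 37, and 35 and 3. These settings change how many pairs are measured. Members measured, in the same order, were 636, 101, 636, 636 and 356 above 10 reads, and 64, 4, 64, 64 and 41 above 100. With no filter they were 3217, 503, 3217, 3217 and 1037, and with the 2 most-read sites 771, 171, 771, 771 and 585. Farther against nearer sites had 634, 172, 634, 634 and 581, and spans from 5000 nt 137, 15, 137, 137 and 63. Shares over all genes were not taken under these settings, so the counts have no background beside them. Both sites in 1 annotated exon (chosen after seeing the data) gave 50 and 38 in siStar-PAP of batch 1, 80 and 18 in siPAPα, 46 and 32 in siPAPγ, and 65 and 8 in the double KD. At 1.5-fold there were 102 and 95 in siStar-PAP of batch 1, 10 and 10 in batch 2, 152 and 72 in siPAPα, 111 and 97 in siPAPγ and 101 and 27 in the double KD. The counts at 1.5-fold have no background beside them either. The first and last site of each table gave 5 and 6 in batch 2. More than 25 reads in siCtrl gave 5 and 3 in batch 2 and 45 and 62 in siPAPγ. siPAPα against siPAPγ gave 93 and 24. edgeR over 7 libraries called 0 and 0 in siStar-PAP, 7 and 1 in siPAPα, 3 and 1 in siPAPγ and 22 and 1 in the double KD.

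Without the replicate block for batch, edgeR called 0 members lengthened and 0 shortened in siStar-PAP, as with it, and 0 at an unadjusted p below 0.05. With the 2 most-read sites it called 1 shortened, and with TMM factors, DESeq2, more than 20 reads or no filter 0. With 1 batch left out this test could not be fitted, since no residual degree of freedom is left. Levels depend on the scale. With TMM factors the medians were 0.01 at first and -0.01 at last sites in siStar-PAP of batch 1, 0.16 at first sites in batch 2, -0.09 and 0.55 in siPAPα, 0.09 and 0.02 in siPAPγ, and -0.45 and 0.67 in the double KD. With the totals of the tables they were -0.03 and -0.10 in siPAPγ and -0.64 and 0.47 in the double KD. The cause of these differences was not tested beyond the scale itself. The shares of sites with AATAAA or ATTAAA were 49.4% at first and 74.9% at last sites. Of 137 values of single genes under alternatives, 117 stayed within the counting interval of the value reported, 19 moved outside it with the same sign and 1 changed sign. The last was MPHOSPH6 in siPAPα, at 0.47 with its 2 most-read sites. With these sites FDX1 was at 0.51 in siPAPα (6.11 with 0.5 added reads) and 0.27 in siPAPγ (5.07), ZNF704 at 0.92 and EARS2 at -0.61, each no longer past 2-fold. In siStar-PAP of batch 2, KIF1A was at -0.95 with the libraries thinned to the shallowest. CD59 was there at -0.88 for the farther against the nearer sites. Under these settings neither was past 2-fold in batch 2.

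Limits are the single library per KD, the 1 siCtrl library behind 4 comparisons and the number of members read at both ends, 307 of 3217 in batch 1 and 39 in batch 2. A member below the read filter is not shown to be unchanged. Genes are not replicates, and the medians describe these libraries.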
